A study of Mus musculus with 6 samples.

Results

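The clustered protocadherins are neuronal cell-surface cadherins encoded side by side in the alpha, beta and gamma gene clusters on mouse chromosome 18. They were taken here as every row of the deposited gene table whose symbol is that of an alpha, beta, gamma A, gamma B or C-type clustered member. This gave 58 rows of 35148, with 14 in the alpha, 22 in the beta and 22 in the gamma cluster. The libraries come from the paraventricular nucleus of the hypothalamus (PVH) of Ruvbl2fl/fl mice, in which both copies of Ruvbl2 carry sites that Cre recombinase can cut. Of the 6 libraries, 3 came from PVH injected with AAV2-GFP, a viral vector that carries only the green marker, and are called GFP-labelled. The other 3, called Cre-labelled, came from PVH injected with AAV2-Cre-GFP, which also carries Cre. All animals carried the floxed allele, so no group shows the vector in wild-type mice, and tissue was taken 8 weeks after injection. The sources used here do not give the age or sex of the mice, the promoter in the vectors or the share of PVH cells they reached. Ruvbl2 encodes an ATPase of chromatin remodelling complexes, and the series asks about its part in synaptic plasticity.

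Clustered protocadherins are bound across the gap between cells by the same isoform on the facing membrane, and neurons use the set of isoforms they display to tell their own branches from those of other neurons. In the alpha and gamma clusters each variable first exon has its own promoter and is spliced to constant exons that all members of the cluster share, while each beta gene is a single large exon of its own. A neuron switches on a small, largely random choice of the alternate isoforms, with CTCF and cohesin looping a promoter to a distant enhancer, whereas the C-type isoforms (Pcdhac1, Pcdhac2, Pcdhgc3, Pcdhgc4 and Pcdhgc5) are used more uniformly.

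In the deposited coordinates, whose starts and ends are those of GRCm38 for 91.4% of the gene identifiers shared with GENCODE M21, the alpha members span chr18:36930184-37187661, the beta members chr18:37264938-37524479 and the gamma members chr18:37661793-37841873, all on the plus strand. The 14 alpha models share 2860 exon bases and the 22 gamma models share 2116. A median of 46.55% of an alpha member's exon bases and 55.3% of a gamma member's belong to no other member, against 100% in the beta cluster, where the exceptions are Pcdhb21 at 90.3% and Pcdhb22 at 93.1%, whose models overlap. Reads from shared exons were not counted in full for every member, since Pcdha8 was given 54 to 81 counts per library beside 2459 to 3209 for Pcdhac2, and how they were divided is not given in the sources used here. Alpha and gamma values are therefore uncertain as levels of single isoforms, and the beta values less so. Beta members still share a median of 11.8% and up to 22.5% of their 31-base words with another member, and 63.5% of the exon bases of Pcdhb12 are overlapped on the other strand. The table gives the symbol Pcdha11 to 2 rows, and no member has the symbol Pcdha10. The row with identifier ENSMUSG00000007440 starts between Pcdha9 and the other Pcdha11 row, and 2499 of its exon bases belong to no other member. Whether it is Pcdha11 or the isoform missing by name was not tested. It is written out with its identifier below, and its values are those of that row only.

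Library totals ran from 41890769 to 54702785 counts, and the 58 members took between 0.0956% and 0.106% of them. Ruvbl2, which was to be deleted, had 9.9, 7.36 and 8.72 FPKM (fragments per kilobase of exon, scaled to sequencing depth) in the GFP-labelled libraries and 9.53, 9.1 and 9.51 in the Cre-labelled ones, a log2 difference of 0.08 ± 0.11 (SE, edgeR adjusted p = 0.773). It was -0.03 without GFP-labelled library 2. Gene-level RNA of the target was thus not lower in the libraries labelled Cre, and every direction below is one between libraries so labelled. Summed markers of kidney reached 458.9 and 502.6 CPM (counts scaled to library size) in Cre-labelled libraries 2 and 3 against 30.9 to 48.5 elsewhere, testis markers 448.8 in GFP-labelled library 1 against at most 2.05, and skeletal muscle markers 169 in Cre-labelled library 3 against at most 13.3. Pituitary markers summed to 32.4 CPM in GFP-labelled library 2 against 1.91 to 8.55 elsewhere. Markers of neurons were present in every library, and 12 of 12 were lower in the Cre-labelled group, with a summed level of 5740.3 to 5864.9 CPM against 4938.9 to 5233.4. PVH neuron markers were lower for 8 of 8 genes, with sums of 331.6 to 793.5 against 263.1 to 571 CPM that overlapped. Thalamus markers were lower for 8 of 8 genes, with overlapping sums. Markers of ependymal cells and tanycytes were higher for 6 of 6 genes, at 107.4 to 121.4 against 143.2 to 205.2 CPM. Choroid plexus markers were split, with 3 higher and 2 lower of 5 tested, and summed to 27 to 27.5 against 28.6 to 49.1 CPM. The part of these shifts in the members' differences was not tested. In tissue libraries, fewer cells of a type and less RNA per cell cannot be told apart. The labels do not say that each library is a separate animal, so p-values measure only the spread between these libraries.

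No clustered protocadherin passed the test between the groups. All 58 were among the 20865 genes tested with edgeR's quasi-likelihood test, and the smallest adjusted p was 0.0995, for Pcdhgc3. The background was as low, since 0.00959% of all genes tested passed, the genes being Hnrnpa3 and Pcsk1n. At an unadjusted p under 0.05 there were 3 members lower in the Cre-labelled libraries (Pcdhgc3, Pcdhga11 and Pcdha11 ENSMUSG00000007440) and 0 higher, where 9.11% of all genes tested were lower and 8.11% higher. The 3 of 58 lower members lie below the background share. DESeq2, a second count test, called 1 member, Pcdhgc3, where it called 8.03% of all genes with an adjusted p.

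The groups did not overlap, in CPM scaled by edgeR's trimmed mean (TMM), for 3 members that were lower (Pcdhgc3, Pcdhac2 and Pcdhga11; 11.7% of all genes) and for 1 that was higher (Pcdhb8; 11.1% of all genes). These shares too are under those of all genes. Most members nevertheless had a small negative difference. Of the 58, 42 were lower and 16 higher, with a median log2 difference of -0.11, against 10639 lower and 10226 higher and a median of -0.01 over all genes tested. The median was -0.15 in the alpha cluster (9 lower, 5 higher), -0.10 in the beta cluster (15 lower, 7 higher) and -0.10 in the gamma cluster (18 lower, 4 higher). Leaving out single libraries moved the alpha median between -0.20 and -0.03, the beta median between -0.10 and -0.04 and the gamma median between -0.17 and -0.05. The alpha and gamma medians came nearest to 0 without Cre-labelled library 1, and the beta median without GFP-labelled library 3. For 45 of 58 members the 95% interval of the difference lay within 1 log2 unit of 0 on both sides, so a doubling or halving was outside it. That held for 21 of 22 gamma, 18 of 22 beta and 6 of 14 alpha members.

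**Figure D1:**
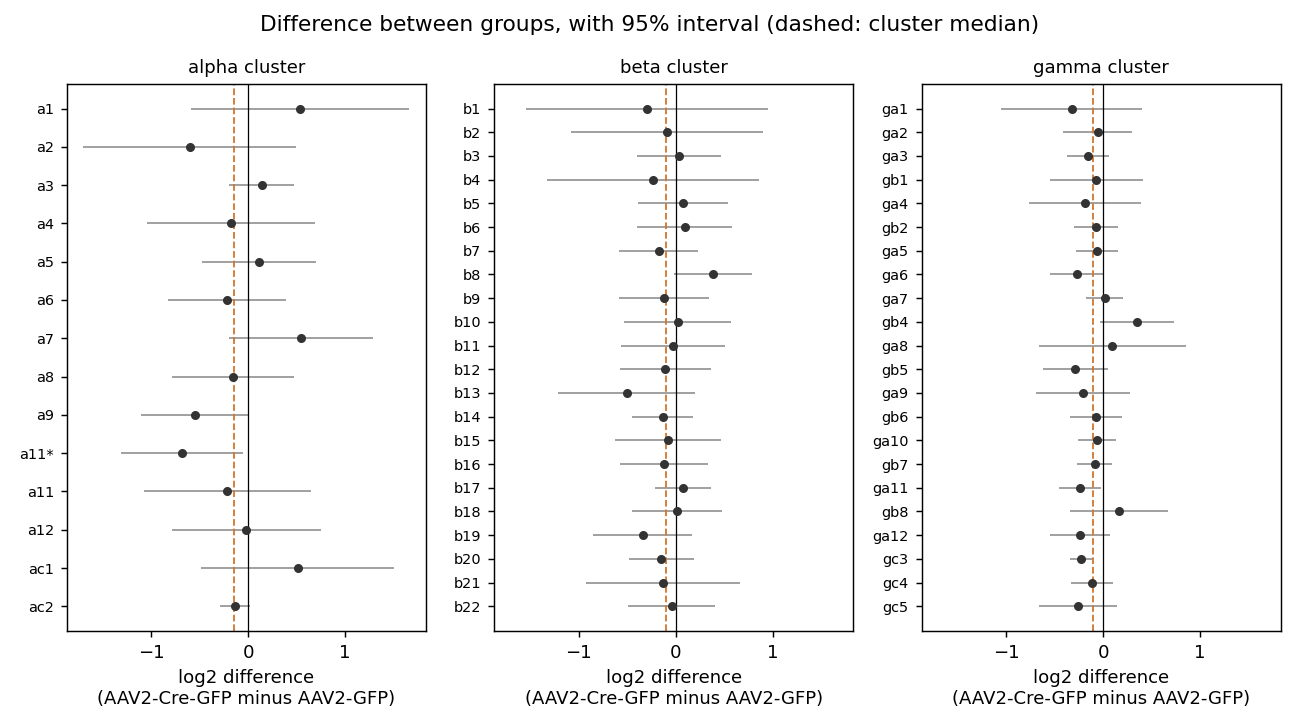
Difference between the groups for each of the 58 members (points, log2 units on the x axis, with the edgeR 95% interval as a line), in 3 panels by cluster and in order along the chromosome; the dashed line is the cluster's median and a11* the row ENSMUSG00000007440. Nearly all intervals include 0, most alpha intervals reach beyond 1 log2 unit on one side, and the narrow interval of Pcdhgc3 lies below 0.

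The C-type isoforms supplied 28.2% to 29.6% of the members' summed FPKM from 5 of 58 rows. Pcdhgc3, which alone among the gamma proteins is known to bind Axin1 and damp Wnt signalling, was the highest of all members. Its levels were 24.6, 25.7 and 24.2 FPKM in the GFP-labelled libraries and 22.1, 21.8 and 21.6 in the Cre-labelled ones. The groups did not overlap, and the spread within a group was the smallest of the 58 members, with an SD of 0.0299 in log2 CPM. The log2 difference was -0.22 ± 0.05 (SE), or -14.4% with a 95% interval from -20.8% to -7.41%. The adjusted p was 0.0995 with edgeR and 0.00229 with DESeq2. Over the 6 fits that left out 1 library each, the log2 difference stayed between -0.24 and -0.20. Of the exon bases of Pcdhgc3, 28.4% are overlapped by the antisense model BC037039, which was given only 4 to 50 counts per library against 5884 to 7595 for Pcdhgc3.

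Pcdhgc4, the isoform that gamma cluster knockouts single out as needed for neuronal survival, had 11.2, 12 and 13.5 FPKM against 10.9, 11.2 and 12.7. These groups overlapped, and the log2 difference was -0.12 ± 0.09 (adjusted p = 0.568), moving to -0.18 without GFP-labelled library 1, -0.05 without Cre-labelled library 1 and -0.03 without GFP-labelled library 3. Pcdhgc5 had 4.36, 5.04 and 4.34 FPKM against 3.06, 3.64 and 5.03, with Cre-labelled library 3 inside the GFP-labelled range and the other two below it. The log2 difference of -0.26 ± 0.17 was -0.10 without Cre-labelled library 1 and -0.47 without Cre-labelled library 3.

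Pcdhac2, the alpha isoform that serotonergic axons need in order to spread evenly, had 9.07, 9.51 and 9.03 FPKM against 9.31, 7.96 and 8.58. It made up a mean of 40.1% of the alpha cluster's FPKM. Its groups overlapped in FPKM and did not in TMM-scaled CPM, and the log2 difference was -0.13 ± 0.07 (adjusted p = 0.357), or -0.08 without Cre-labelled library 2. Of 4 serotonergic markers only 1 had enough counts to be tested. The 4 summed to 41 to 46 CPM in the GFP-labelled and 30.5 to 51.6 CPM in the Cre-labelled libraries. Whether this RNA comes from serotonergic fibres or neurons was not tested. Pcdhac1 behaved unlike the other C-type members. It had 0.63, 0.703 and 0.444 FPKM against 0.369, 1.29 and 0.921, so that the lowest and the highest value of the 6 were both in the Cre-labelled group. Its log2 difference of 0.51 ± 0.43 became 0.89 when Cre-labelled library 1 was left out and 0.10 when Cre-labelled library 2 was.

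The summed level of the 5 C-type members was 49.9, 52.9 and 51.6 FPKM in the GFP-labelled and 45.7, 45.9 and 48.8 in the Cre-labelled libraries. It did not overlap in FPKM, in TMM-scaled CPM or in CPM of the library totals, and the means differed by -9.05% in FPKM and -11.5% in TMM-scaled CPM. Pcdhgc3 alone supplies nearly as much as the other members of this sum together. Pcdhac1 and Pcdhac2 summed to 9.7, 10.2 and 9.47 FPKM against 9.68, 9.25 and 9.5, which overlapped. The separation was not particular to the C-type members. The gamma A sum did not overlap in FPKM either, at 57.1, 58.9 and 58.8 against 56.6, 51 and 56.6, nor in TMM-scaled CPM. It did overlap in CPM of the library totals. Neuron markers were lower in the same libraries. Set against them, which was decided after seeing the data, the C-type sum was 5.78, 6 and 5.98 CPM per 100 CPM of neuron markers in the GFP-labelled and 6.15, 5.87 and 6.43 in the Cre-labelled libraries. Pcdhgc3 was at 2.71, 2.77 and 2.68 against 2.84, 2.67 and 2.69 on that scale. On it the groups overlapped for both, and neither was lower in all Cre-labelled libraries.

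**Figure D2:**
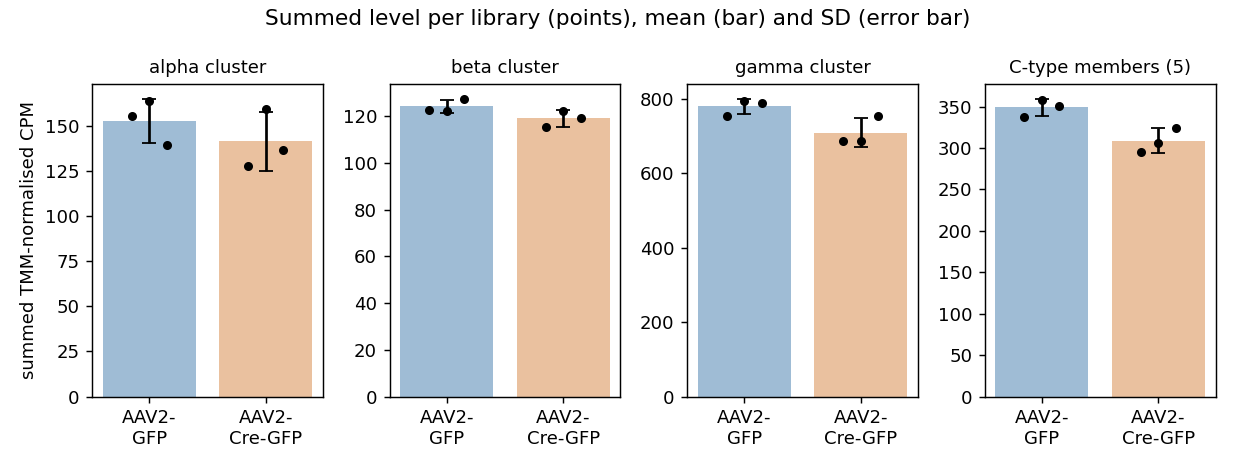
Summed TMM-scaled CPM of the alpha, beta and gamma clusters and of the 5 C-type members in each library (points), with the mean (bar, from 0) and SD (error bar) of 3 libraries per group. The alpha and beta sums overlap between the groups. The gamma sum meets at the edge, with GFP-labelled library 1 and Cre-labelled library 3 both at 755.8. The C-type sum does not overlap, at 337.5 to 358.5 against 295.5 to 324.8.

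Among the whole clusters, gamma held between 69.1% and 72.8% of the members' summed FPKM, alpha between 11.9% and 15% and beta between 14.2% and 16%. The gamma sum was 122.7, 128.9 and 126.6 FPKM in the GFP-labelled and 116.8, 112.6 and 124.9 in the Cre-labelled libraries. The beta sum was 25.3, 25.4 and 26.7 FPKM against 24.8, 26 and 25.6. The alpha sum was 23.6, 24.6 and 20.8 FPKM against 20, 24.4 and 21.1, and the groups overlapped in each cluster. The sum over all 58 members was lower in every Cre-labelled library in TMM-scaled CPM, at 1033.9, 1080.7 and 1057 against 929.9, 969.4 and 1011.9. It overlapped in CPM of the library totals and met at the edge in FPKM, where GFP-labelled library 1 and Cre-labelled library 3 both stood at 171.5. Per 100 CPM of neuron markers the same sum was higher in every Cre-labelled library, at 17.7, 18.1 and 18 against 19.4, 18.6 and 20. The direction of the summed level therefore depended on what it was set against.

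**Figure D3:**
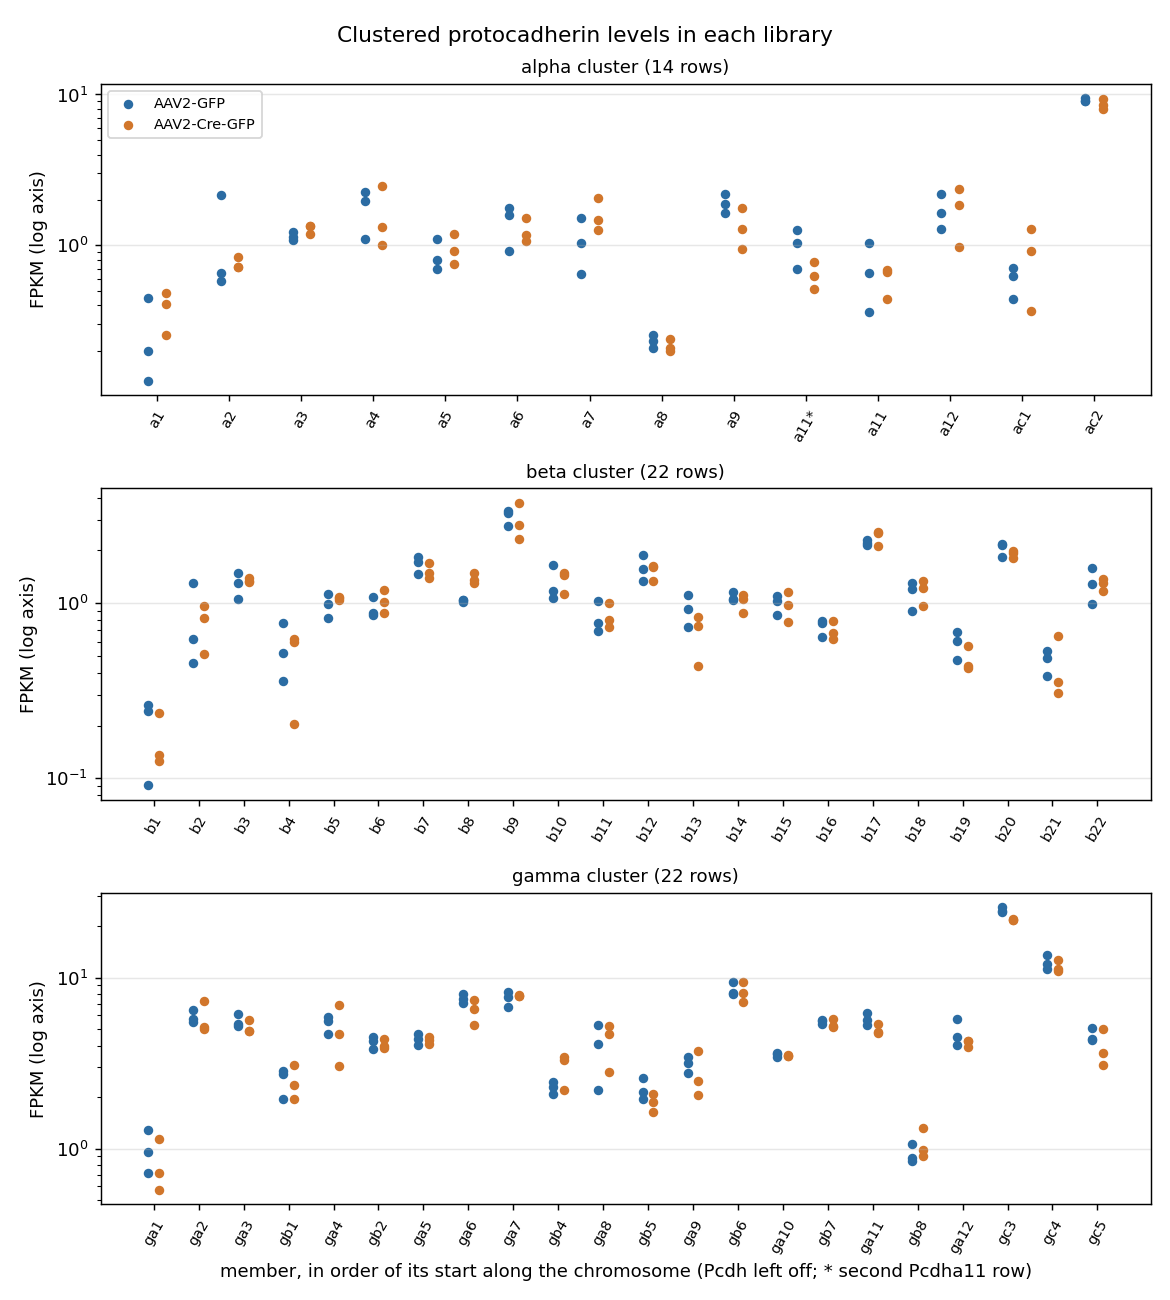
FPKM of each member in each library on a log axis, in 3 panels by cluster and in order along the chromosome, GFP-labelled libraries in blue and Cre-labelled in orange; a11* is the row ENSMUSG00000007440. The groups overlap for most members, Pcdhgc3, Pcdhgc4 and Pcdhac2 stand highest, and the alpha points of one group are the most scattered.

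In the alpha cluster, the 12 alternate isoforms lay between 0.224 FPKM (Pcdha8) and 1.72 FPKM (Pcdha12) on average. Pcdha12 had 1.29, 1.65 and 2.2 FPKM in the GFP-labelled libraries and 0.981, 2.37 and 1.85 in the Cre-labelled ones. Pcdha4 had 2.25, 1.98 and 1.11 FPKM against 1.33, 2.48 and 1. In both, the Cre-labelled group held the lowest and the highest value. The differences of -0.02 ± 0.33 and -0.18 ± 0.37 log2 units were smaller than their errors.

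The lowest alternate alpha difference was that of Pcdha11 ENSMUSG00000007440, with 1.04, 1.27 and 0.701 FPKM against 0.514, 0.626 and 0.774. Its log2 difference was -0.68 ± 0.27 (adjusted p = 0.257), and the groups overlapped through GFP-labelled library 3. The second Pcdha11 row had 0.363, 1.03 and 0.651 FPKM against 0.442, 0.67 and 0.684, and 44.3% of its exon bases are overlapped by a gene on the other strand. Pcdha9 had 1.88, 2.19 and 1.64 FPKM against 1.28, 1.77 and 0.939, a log2 difference of -0.55 ± 0.24 (adjusted p = 0.3) that was -0.34 without Cre-labelled library 3. Pcdha7 had the largest positive difference, 0.54 ± 0.32, from 0.648, 1.52 and 1.04 FPKM against 1.27, 2.05 and 1.47, and the value of GFP-labelled library 1 was the lowest. Without that library it was 0.28, below Pcdhac1 at 0.56, without Cre-labelled library 2 it was 0.33, and without GFP-labelled library 2 it was 0.88. In Pcdha2 GFP-labelled library 1 was the high one, at 2.15 FPKM where the other 5 libraries lay between 0.584 and 0.833. Pcdha1, from 33 to 165 counts per library, had 0.199, 0.127 and 0.447 FPKM against 0.256, 0.411 and 0.481. In Pcdha5 and Pcdha6, with differences of 0.11 and -0.22 log2 units, the groups overlapped as well.

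Spread between libraries of one group differed between the clusters. The median SD within groups was 0.452 log2 units for the alternate alpha isoforms, 0.23 for the beta members and 0.186 for the gamma members, against 0.188 over all genes tested. Among the 5440 genes in the same range of mean CPM as the alternate alpha isoforms, the median was 0.288. It was 0.338 in the range of the beta members and 0.124 in that of the gamma members. The C-type members had a median SD of 0.133, and genes in their range had one of 0.127. The beta range reaches down to Pcdhb1, at 12 to 36 counts, so it takes in genes with fewer counts than the other beta members. Whether beta members are less spread than genes of equal counts was not tested. The variance within groups, as a multiple of counting error, had a median of 26.9 in the alternate alpha isoforms, 4.95 in the beta members and 24.1 in the gamma members. Genes in the same ranges of mean CPM had medians of 7.52, 6.86 and 9.75. For the C-type members the median was 32.4, against 9.68 for genes in their range. These medians all lie above 1, and among the beta members only Pcdhb8, at 0.842, does not exceed it. How far the sharing out of constant-exon reads enters the spread was not tested.

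**Figure D4:**
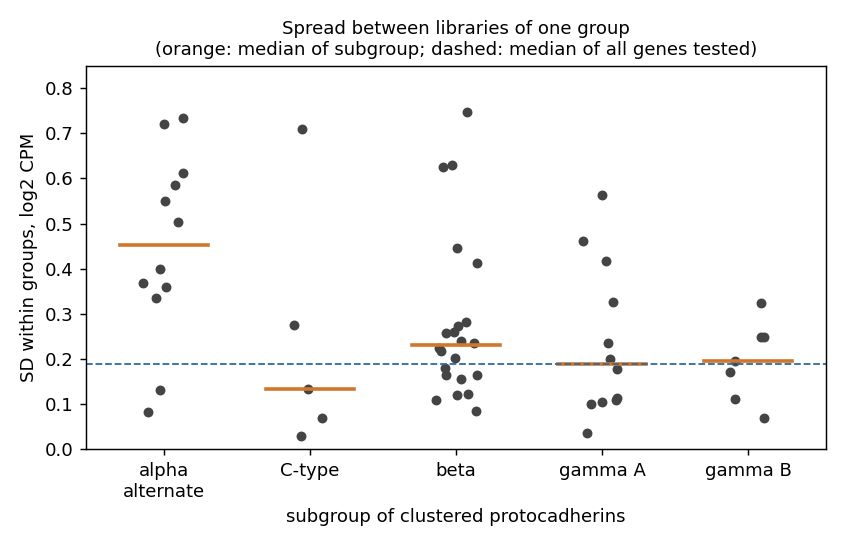
SD between libraries within groups (log2 CPM, y axis) for each member (points) by subgroup, with the subgroup's median as an orange bar and the median of all genes tested, 0.188, as a dashed line. Alternate alpha isoforms have a median of 0.452 and C-type isoforms one of 0.133, with Pcdhac1 far above the rest of its subgroup at 0.71. All genes in the C-type range of mean CPM have a median of 0.127 (not drawn).

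Single members departed from these medians. Pcdha3 and Pcdha8 were steady alternates, with within-group SDs of 0.0833 and 0.132. Pcdha3 had 1.14, 1.22 and 1.08 FPKM in the GFP-labelled and 1.34, 1.19 and 1.35 in the Cre-labelled libraries. In the gamma cluster the steadiest alternate was Pcdhga10 at 0.0359, with 3.63, 3.41 and 3.57 FPKM against 3.51, 3.46 and 3.47, and the most variable was Pcdhga8 at 0.563. Pcdhga8 had 5.29, 4.09 and 2.19 FPKM against 5.18, 4.69 and 2.81, and library 3 was the low one in both groups.

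Beta proteins have no constant intracellular part and are thought to act with alpha and gamma isoforms in mixed complexes. Their mean levels ran from 0.182 FPKM (Pcdhb1) to 3.05 FPKM (Pcdhb9), and 12 of 22 reached 1 FPKM. Pcdhb9 had 3.28, 3.38 and 2.76 FPKM in the GFP-labelled and 2.32, 3.75 and 2.8 in the Cre-labelled libraries. Pcdhb17 had 2.2, 2.3 and 2.15 against 2.13, 2.53 and 2.54, and Pcdhb20 had 2.14, 1.84 and 2.19 against 1.94, 1.8 and 1.98. The groups overlapped in these 3 most abundant beta members.

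Pcdhb8 was the only member of the 58 that was higher in every Cre-labelled library than in any GFP-labelled one. It had 1.04, 1.02 and 1.04 FPKM against 1.31, 1.48 and 1.36, from 171 to 302 counts. Its log2 difference was 0.38 ± 0.17, or 30.5% with an interval from -1.24% to 72.3% (adjusted p = 0.309). The largest negative beta difference was that of Pcdhb13, -0.50 ± 0.31, from 0.931, 1.12 and 0.729 FPKM against 0.439, 0.831 and 0.736. Without Cre-labelled library 1, which held the lowest value, it was -0.26. Pcdhb19 had 0.683, 0.605 and 0.473 FPKM against 0.569, 0.426 and 0.436, a log2 difference of -0.34 ± 0.22 (-0.22 without GFP-labelled library 1), and the groups overlapped for both. In the remaining beta members the groups overlapped too, with log2 differences between -0.29 (Pcdhb1) and 0.09 (Pcdhb6).

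Gamma proteins carry the shared intracellular part that binds focal adhesion kinases. The 12 gamma A members had a median log2 difference of -0.17, with 10 lower and 2 higher, and the 7 gamma B members one of -0.07, with 5 lower and 2 higher. Pcdhgb6 was the highest alternate, with 7.99, 9.36 and 8.07 FPKM in the GFP-labelled and 7.23, 8.07 and 9.45 in the Cre-labelled libraries. Pcdhga7 stood next at 6.76, 8.28 and 7.65 against 7.81, 7.81 and 7.92. Neither moved by more than its error.

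Pcdhga11 had 5.68, 6.18 and 5.25 FPKM against 4.82, 5.32 and 4.73, a log2 difference of -0.24 ± 0.09 (adjusted p = 0.25). The FPKM of the groups crossed only between GFP-labelled library 3 and Cre-labelled library 2. A gene on the other strand, Gm26672, overlaps 29% of its exon bases and had 43 to 209 counts per library against 1112 to 1431 for Pcdhga11. Pcdhga6 had 8, 7.13 and 7.49 FPKM against 6.58, 5.3 and 7.43, a log2 difference of -0.27 ± 0.12 (adjusted p = 0.306) that was -0.14 without Cre-labelled library 2. The extreme gamma differences were those of Pcdhga1, -0.33 ± 0.32, and Pcdhgb4, 0.35 ± 0.17. Leaving out GFP-labelled library 1 or 3 put Pcdhga1 at -0.51 or -0.09, leaving out Cre-labelled library 1 or 3 put it at -0.11 or -0.63, and Pcdhgb4 was at 0.53 without Cre-labelled library 2. Pcdhgb4 had 2.29, 2.45 and 2.08 FPKM against 3.43, 2.2 and 3.28, and Cre-labelled library 2 lay within the GFP-labelled range. The remaining gamma alternates overlapped between the groups, with log2 differences between -0.29 (Pcdhgb5) and 0.16 (Pcdhgb8). Mean levels reached 1 FPKM in 20 of 22 gamma members, and the lower ones were Pcdhga1 at 0.896 and Pcdhgb8 at 0.998, the latter annotated as a polymorphic pseudogene.

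Libraries differed in how often they held an extreme value. GFP-labelled library 2 held the highest of the 6 values for 18 of 58 members, and the lowest for 7. Cre-labelled library 1 held the lowest for 21 of 58 members, and the highest for 3. Such counts were not made over all genes, so whether they are particular to the members was not tested. The lowest values of Cre-labelled library 1 were those of 12 of 22 gamma, 6 of 22 beta and 3 of 14 alpha members. The median deviation from a member's mean in that library was -0.28 log2 units in the alpha, 0.02 in the beta and -0.15 in the gamma cluster, so the beta median did not share the low level. In Cre-labelled library 2 the alpha members stood at 0.20 while the gamma members stood at -0.07. Cre-labelled library 1 also had the lowest neuron marker sum, 4938.9 CPM, and the highest level of the ribosomal RNA model CT010467, at 17633.1 CPM where the GFP-labelled libraries had 2071.7 to 2219. Cre-labelled libraries 2 and 3 had 13491.8 and 7300.8 CPM of it, and its part in the members' values was not tested.

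**Figure D5:**
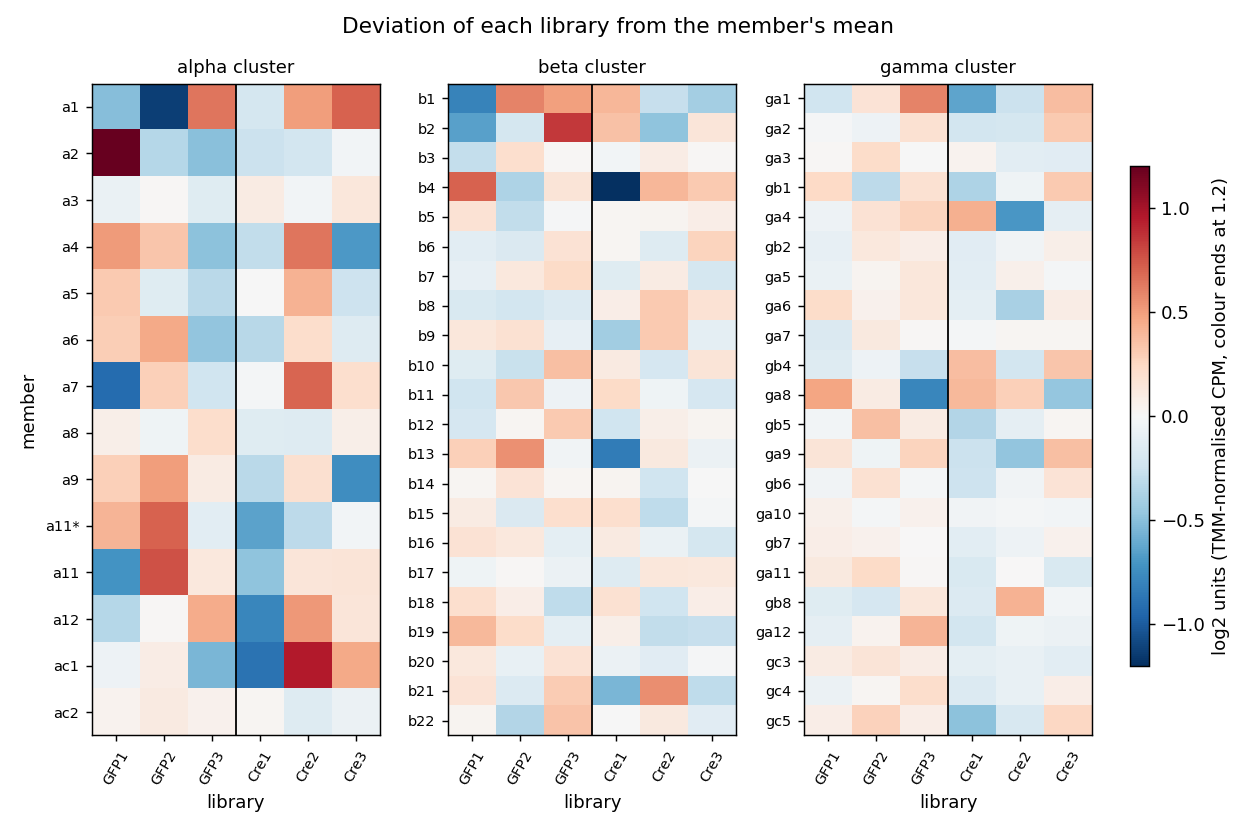
Deviation of each library (columns, GFP-labelled left of the line) from the member's mean over 6 libraries (rows, in order along the chromosome), in log2 TMM-scaled CPM with the colour scale ending at 1.2. Cre1 is blue for most alpha and gamma members, Pcdha2 is far higher in GFP1 than elsewhere, and the beta rows show no library that is low throughout.

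The genes known to select a promoter were close to level. Of 10 genes for CTCF, cohesin and its loaders and releasers, 0 passed the test, 6 were lower and 4 higher, and the median log2 difference was -0.03 against -0.01 over all genes tested. Pds5b, a cohesin regulator, had 11, 11.3 and 10 FPKM in the GFP-labelled and 10, 8.66 and 8.64 in the Cre-labelled libraries, a log2 difference of -0.28 ± 0.07 (edgeR adjusted p = 0.13, DESeq2 0.0108). Wapl, which releases cohesin from DNA and so sets how far it reels in promoters, had 7.63, 6.22 and 6.4 FPKM against 6.73, 5.92 and 5.72 (edgeR adjusted p = 0.396). Ctcf itself had 11.2, 12.6 and 12.1 FPKM against 13.2, 12.8 and 12.4, a difference of 0.06 ± 0.06.

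Of 15 chromatin repressors linked to the clusters, such as Smchd1, Setdb1 and the DNA methyltransferases, 0 passed, 6 were lower and 9 higher, with a median of 0.02. Of the heterochromatin proteins, Cbx1 was higher, and Cbx3 and Cbx5 were lower. Cbx1 had 6.76, 6.82 and 7.12 FPKM against 9.68, 8.91 and 8.34, a difference of 0.34 ± 0.07 (edgeR adjusted p = 0.1, DESeq2 0.00996). Cbx3 had 10.5, 9.97 and 10.1 FPKM against 9.36, 8.68 and 8.15, a difference of -0.26 ± 0.07 (edgeR adjusted p = 0.124, DESeq2 0.0213). In neither gene did the groups overlap. Cbx5 had a difference of -0.21 ± 0.07 (edgeR adjusted p = 0.173, DESeq2 0.0212), and Atf7ip one of -0.23 ± 0.06 (edgeR adjusted p = 0.126, DESeq2 0.0185). DESeq2 called these 4 of the 15 genes, against its background of 8.03%. In TMM-scaled CPM the groups did not overlap for 4 of the 15 that were lower and 6 that were higher. Over all genes tested those shares were 11.7% and 11.1%.

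Among 19 intracellular partners and downstream genes, 0 passed, 12 were lower and 7 higher, and the median was -0.08. DESeq2 called 4 of the 19, where it called 8.03% of all genes with an adjusted p. The 4 were Ret, Marcks, Nckap1 (adjusted p = 0.00123) and Abi2 (adjusted p = 0.0489). The latter pair belong to a complex that drives actin branching. Ret, a receptor kinase that joins clustered protocadherins at the membrane, had 5.77, 6.65 and 5.96 FPKM against 4.89, 4.85 and 4.98, a difference of -0.36 ± 0.07 (edgeR adjusted p = 0.0936, DESeq2 0.00473). Marcks, an actin-binding substrate of protein kinase C through which gamma isoforms promote dendrite branching, had 44.6, 39.4 and 36.4 FPKM against 32.5, 30.7 and 25.9. That was a difference of -0.47 ± 0.10 (edgeR adjusted p = 0.095, DESeq2 0.000143). The groups did not overlap in either gene. The kinases that the shared tails inhibit were Ptk2, at a difference of 0.00 ± 0.06, and Ptk2b, at -0.46 ± 0.37 with overlapping groups.

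Of 9 genes for shedding proteases and surface partners 0 passed, with 4 lower, 5 higher and a median of 0.05. Nlgn1, a neuroligin that binds gamma isoforms, had 3.88, 3.93 and 3.74 FPKM against 3.46, 3.3 and 3.59 (adjusted p = 0.173). Adam17, a protease that cuts surface proteins free, had 2.66, 2.02 and 2.14 FPKM against 3.1, 2.84 and 3.03 (adjusted p = 0.19).

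The 12 non-clustered protocadherins mostly lie elsewhere in the genome and are not chosen at random. Of them 11 were lower and 1 higher, with a median of -0.19 and 0 past the test. Pcdh19, a gene mutated in a female-biased epilepsy, had 7.51, 8.32 and 7.84 FPKM against 7.27, 7.23 and 6.6 (adjusted p = 0.183). Pcdh8, which takes part in activity-driven removal of cadherin from synapses, had 10.5, 11.7 and 11.8 FPKM against 10.5, 9.9 and 9.5 (adjusted p = 0.187). The median was thus negative outside the clusters as well. Classical cadherins and catenins had a median of -0.07, with 9 lower and 4 higher of 13, and 0 passed. DESeq2 called 2 of these 13, where it called 8.03% of all genes with an adjusted p. Cdh6 had a difference of -0.52 ± 0.16 (edgeR adjusted p = 0.176, DESeq2 0.0441), and Ctnnd2, a neuronal catenin, one of -0.26 ± 0.08 (edgeR adjusted p = 0.186, DESeq2 0.0386).

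The 14 genes beside and between the clusters were 7 lower and 7 higher, with a median of 0.00 and 0 past the test. Rell2 had 18.8, 18.9 and 19.9 FPKM against 16.6, 17 and 16.2 (edgeR adjusted p = 0.113, DESeq2 0.0172). Hdac3, a histone deacetylase, had 17.3, 19.3 and 20.6 FPKM against 24.9, 24.1 and 22.1 (edgeR adjusted p = 0.158, DESeq2 0.029). Pcdh1 and Pcdh12 belong to this list as well as to the non-clustered protocadherins.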

How the data were processed

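Poly(A) RNA was sequenced as paired 150-base reads from stranded libraries, per the labels' protocols. The submitters' processing notes name cutadapt, HISAT2, StringTie and mm9, and the deposited coordinates are those of GRCm38 for most genes. The authors deposited counts per gene and FPKM in 1 table; count/FPKM ratios follow the full exon length. The strand setting of the counting is not given in the sources used here.

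Counts were fitted over 20865 of 35148 genes with edgeR 4.0.16 (R 4.3.3; filterByExpr with a minimum count of 10, TMM factors, quasi-likelihood test, Benjamini-Hochberg adjustment, threshold 0.05), 3 libraries against 3. The common coefficient of biological variation was 27.1%. DESeq2 1.42.0, limma 3.58.1 on log2(FPKM + 0.5), other scalings and filters, a replicate block and leaving out libraries were alternatives. The fits were tested on simulated data with larger changes than any member's difference and less spread than the common one here. That test does not show whether differences of the members' size would be found. Members and lists were chosen with earlier results of these data known. Named genes were, per cluster, the 3 highest, the 3 smallest p and the extreme differences, plus the C-type members and the 2 smallest p per list; others are given by level or after their values were seen. Replicate numbers did not pair libraries. No sequences are printed.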

Additional observations from a re-analysis of the deposited data

How the results depend on the processing

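Members called numbered 0 with edgeR and limma in the other fits over all 6 libraries and with 1 left out, 1 (Pcdhgc3) with DESeq2, and 2 (Pcdha12 and Pcdhgc5) when GFP-labelled libraries 2 and 3 were set against Cre-labelled library 1 alone, a comparison added after seeing the data that leaves out the libraries with kidney or testis transcripts. That comparison keeps GFP-labelled library 2, which had the highest pituitary markers, and assumes that the lone library varies like the others. In it the gamma median was -0.232 and the beta median -0.051. The beta median was -0.036, -0.047 and -0.027 with limma at pseudocounts of 0.5, 0.1 and 1, -0.05 with library totals only (added after seeing the data), and between -0.095 and -0.045 with 1 library left out. The number called among all genes rose from 2 to 296 without Cre-labelled library 1, with 0 members, to 121 with a minimum count of 50, to 22 with the robust fit, to 9 with other scaling factors, and to 1059 in the comparison of 2 libraries with 1. With a replicate block 0 members were called, 3 genes in all, and Pcdhgc3 had an adjusted p of 0.181. Library totals only moved the median of all genes to 0.04.

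Directions turned in 10 of 36 named genes in at least 1 of 18 alternatives. Leaving out 1 library gave Ruvbl2 -0.029 to 0.181, Pcdha12 -0.306 to 0.282 (higher without GFP-labelled 3 or Cre-labelled 1), Pcdha4 -0.642 to 0.083 (higher without GFP-labelled 1 or Cre-labelled 3), Pcdhb9 -0.324 to 0.047 (higher without Cre-labelled 1) and Pcdhgb6 -0.169 to 0.033 (higher without GFP-labelled 2 or Cre-labelled 1). Pcdha12 was 0.001 with no filter and 0.024 with library totals only. Against Cre-labelled library 1 alone, Pcdha7 was -0.056, Pcdhb17 -0.121, Pcdhb19 0.023, Pcdhac1 -0.689 and Wapl 0.039. The causes were not tested. The other 26 named genes kept their direction in every alternative run.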
